A study of Triticum turgidum subsp. durum with 24 samples.

Results

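The genes of reversible starch phosphorylation were followed through endosperm development in the durum wheat variety Kronos. They were GWD1.1-A1, GWD1.1-B1, GWD1.2-A1, GWD1.2-B1, PWD-A1, SEX4-A1, LSF1-A1, LSF1-B1 and LSF2-B1, and were found by the gene IDs in a published sheet of starch genes. They are 9 of the 66559 transcripts listed. The sheet holds 11 genes of this process. The other 2, PWD-A2 and SEX4-B1, are the second copies of PWD and SEX4 and are given beside them. A1 and B1 mark the copies (homeologs) on the A and B genomes of this tetraploid wheat.

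Starch granules are made of tightly packed glucan chains that enzymes reach poorly. Glucan, water dikinase (GWD) places a phosphate on the C6 position of glucose units in amylopectin, and phosphoglucan, water dikinase (PWD) then adds phosphate at C3, which loosens the chains. The phosphatases SEX4 and LSF2 remove these phosphates again, and LSF1 is a related protein that binds β-amylases and has no known phosphatase activity on glucans. These roles are known best from Arabidopsis leaves, where mutants in GWD or SEX4 degrade starch slowly at night and accumulate it.

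Endosperms of untreated Kronos plants, grown in controlled environment chambers, were dissected at 6, 8, 10, 13, 15, 18, 20 and 30 days post anthesis (dpa), with 3 replicates from separate plants at each timepoint and 24 RNA-Seq libraries in all. RNA came from 6 endosperms a replicate up to 10 dpa, from 4 a replicate between 13 and 18 dpa and from 3 thereafter, and a plant could serve more than 1 timepoint. No genotype or treatment was compared, so each contrast is between stages of the same variety. In such bulk tissue, fewer cells of a type and less RNA per cell cannot be told apart.

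The libraries held 56180606 to 115800050 estimated counts. The 10 genes (5 pairs of copies) used as markers of starchy endosperm summed to 432 to 7032 TPM (the length-scaled transcript abundance of kallisto). None of them was at 0 in any library. GBSSII-B1, the granule-bound starch synthase of pericarp and vegetative tissue, ranged from 0.208 to 14.5 TPM and was highest at 10 dpa. Its part in the results was not tested. TPM are relative to the total of a library. From 6 to 30 dpa the median of all genes tested moved by -1.08 in log2 TPM with 0.1 added. It moved by -1.76 in counts scaled by library totals alone. After TMM scaling, the edgeR scaling that centres the bulk of the genes, it moved by -0.01. Levels are therefore given in TPM, changes are given in counts per TMM-adjusted library size (TMM-scaled counts, or CPM for levels), and any direction that the scaling turns is said with it. A gene was called as rising or falling in edgeR's quasi-likelihood test at an adjusted p (Benjamini-Hochberg) of at most 0.05 and a change over 1.5-fold.

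The 9 genes sat at low to moderate levels (plots of TPM by library). PWD-A1 was the most abundant by mean TPM at all 8 timepoints, with a mean of 9.77 TPM ± 1.46 (SD, n = 3) at 8 dpa, above 85.0% of the transcripts listed. GWD1.1-A1 never passed a mean of 0.222 TPM. Together the 9 genes held 29.0 TPM ± 2.20 at 8 dpa and 14.6 TPM ± 2.04 at 30 dpa.

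**Figure D1:**
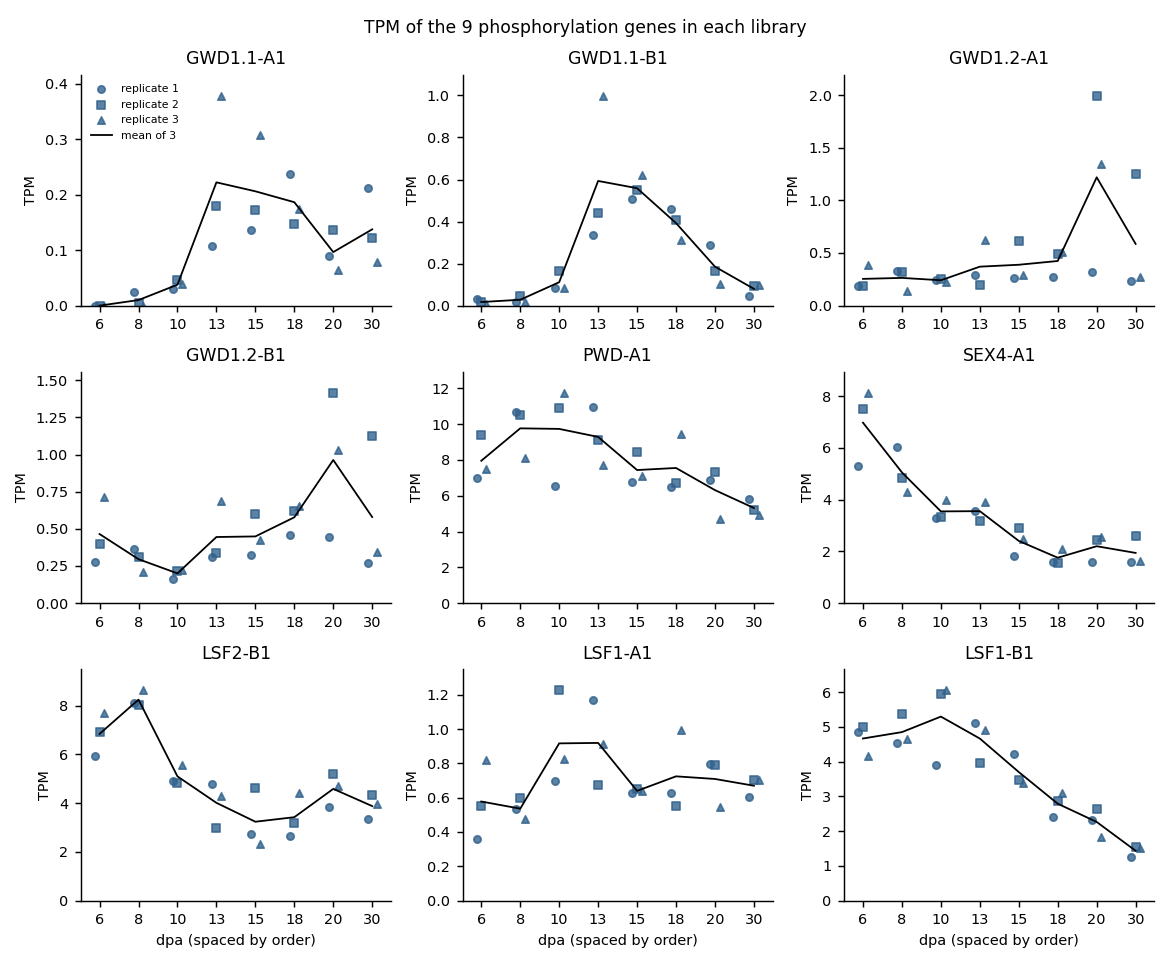
TPM (y axis, from 0, a scale of its own in each panel) against dpa (x axis, spaced by order) for the 9 genes; symbols are single libraries of replicates 1, 2 and 3, and lines join the means of 3. By mean TPM GWD1.1 was highest at 13 dpa, GWD1.2 at 20 dpa with replicate 1 low, and SEX4-A1 was highest at 6 dpa, with a mean of 6.97 TPM.

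All 9 genes differed among the 8 timepoints in the edgeR F test, as did 74.4% of all genes tested, with adjusted p from 8.37e-08 for GWD1.1-B1 to 0.0216 for LSF1-B1. Between 6 and 13 dpa, 3 of the 9 rose (26.0% of all genes tested) and 1 fell (23.8%). Between 13 and 20 dpa, 3 rose (6.82%) and none fell (4.37%), where 1 gene had an unadjusted p under 0.05 for a fall, DESeq2 called 0 and limma on TPM 1 to 3 depending on the value added. Between 20 and 30 dpa none rose (3.08%) or fell (7.16%) in edgeR, with no unadjusted p under 0.05, 0 calls by DESeq2 and 0 or 1 fall by limma. Over the whole course from 6 to 30 dpa, 6 rose (28.7%) and none fell (29.1%), with 2 unadjusted p under 0.05 for a fall, 0 falls by DESeq2 and 3 by limma with either value added. Shares of all genes are not given for DESeq2 and limma, so their counts cannot be set against the other genes. Scaled by library totals alone, 2 rose (8.23% of all genes tested) and 4 fell (67.1%) from 6 to 30 dpa. From 13 to 20 dpa 1 rose (3.58%) and 2 fell (32.0%), and from 6 to 13 dpa 2 rose (15.3%) and 2 fell (37.8%).

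**Figure D2:**
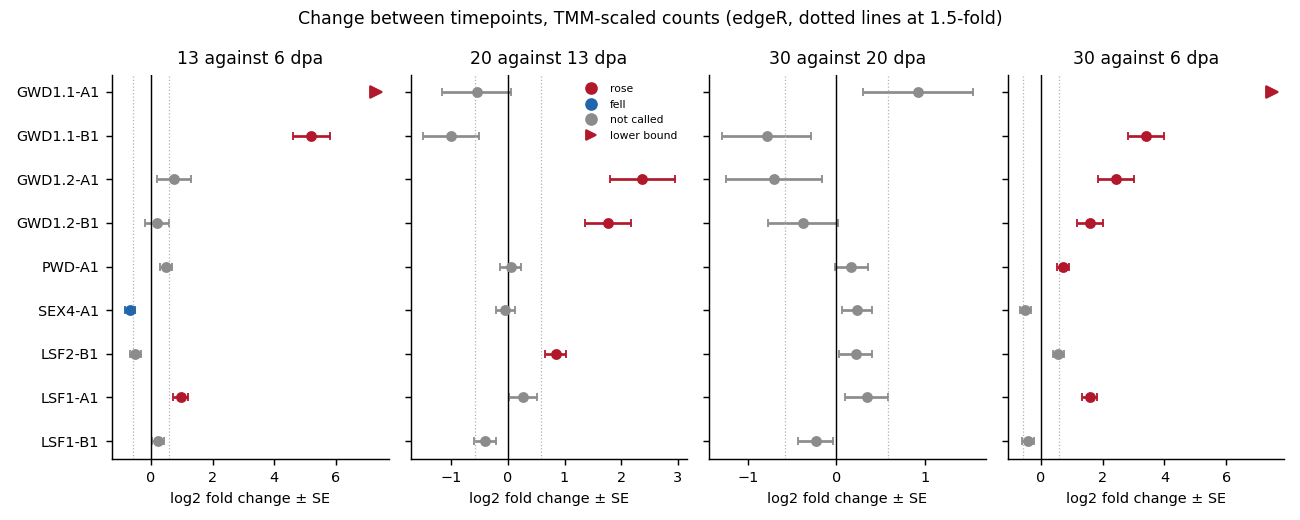
Log2 fold change of TMM-scaled counts (x axis, a range of its own in each panel; points with SE bars from edgeR over 24 libraries) for the 9 genes (y axis) in 4 comparisons; red rose, blue fell, grey was not called, and the arrow marks the lower bound for GWD1.1-A1, which had 0 counts at 6 dpa. The dotted lines stand at 1.5-fold, and 20 against 13 dpa shows GWD1.2-A1, GWD1.2-B1 and LSF2-B1 called above it, and GWD1.1-B1 past it on the other side without a call.

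GWD1.1 encodes a glucan, water dikinase, and its copies had the largest log2 fold changes of the 9 genes between 6 and 13 dpa. GWD1.1-A1 (TRITD1Av1G199930) lies on chromosome 1A at 524264731 to 524275325 of the Svevo.v1 assembly, with a coding length of 3912 bases, and GWD1.1-B1 (TRITD1Bv1G190420) on 1B at 582665034 to 582676552, with 4077. Both were near 0 at the earliest stages.

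GWD1.1-B1 measured 0.0297, 0.0149 and 0.00653 TPM at 6 dpa, 21, 8 and 4 estimated counts in the 3 libraries. At 13 dpa it measured 0.338, 0.442 and 0.999 TPM. The groups did not overlap, and replicate 3 of 13 dpa stood above the other libraries of the series. The increase had a log2 fold change of 5.20 ± 0.60 (SE, edgeR adjusted p = 7.12e-07), and of 4.75 without that library. It came in steps, with log2 fold changes of 2.16 ± 0.55 from 8 to 10 dpa (adjusted p = 0.0130) and 2.50 ± 0.51 from 10 to 13 dpa (adjusted p = 0.00677). Of all genes tested 7.54% and 4.90% rose in these 2 steps, and 2 of the 9 genes rose in each.

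The step from 8 to 10 dpa was not called without replicate 1 or 3 of 8 dpa or replicate 2 of 10 dpa, with adjusted p of 0.0658 to 0.0810, nor in limma on TPM with 0.1 or 1 added (0.123 and 0.499). At 15 dpa the mean of GWD1.1-B1 was 0.559 TPM ± 0.0561 (SD, n = 3), at 18 dpa it was 0.393 TPM ± 0.0758 and by 20 dpa 0.185 TPM ± 0.0944. The 15 and 18 dpa libraries did not overlap, nor did those of 18 and 20 dpa. At 30 dpa it was down to 0.0445, 0.0949 and 0.0999 TPM. The edgeR change from 13 to 20 dpa, -1.01 ± 0.49 on the log2 scale, was not called (adjusted p = 0.181), and counts scaled by library totals alone gave a called fall of 1.74, as limma on TPM with 0.1 added did of 1.22. Against 6 dpa, GWD1.1-B1 remained higher at 30 dpa, with a log2 fold change of 3.41 ± 0.59 (adjusted p = 4.31e-05), which limma on TPM did not call (adjusted p of 0.0729 and 0.449).

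GWD1.1-A1 followed a like course at a lower level. It had 0 counts in all 3 libraries at 6 dpa and 17 in all at 8 dpa, and measured 0.0297, 0.0454 and 0.0380 TPM at 10 dpa. At 13 dpa the libraries gave 0.108, 0.180 and 0.378 TPM, all above those of 10 dpa. Set against a floor of 3 counts over the 6 dpa group (0.00943 TMM-scaled CPM), GWD1.1-A1 was at least 157-fold higher at 13 dpa (edgeR adjusted p = 1.72e-06) and at least 178-fold higher at 30 dpa (adjusted p = 5.45e-07). Its step from 10 to 13 dpa, a log2 fold change of 2.62 ± 0.66 (adjusted p = 0.0206), was not called without replicate 1 or 3 of 10 dpa or replicate 3 of 13 dpa (adjusted p of 0.0902 to 0.101), nor in the 6 libraries alone (0.0525). With 1 TPM added, well above its level, limma left each of these GWD1.1-A1 changes short of 1.5-fold. At 30 dpa it measured 0.211, 0.122 and 0.0786 TPM, within the range of its 13 to 20 dpa libraries, whereas the 30 dpa libraries of GWD1.1-B1 were below all of its own from 13 to 20 dpa.

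GWD1.2, the second glucan, water dikinase, was present from the start. By mean TPM both copies were highest at 20 dpa, against 13 dpa for GWD1.1, and in TMM-scaled CPM GWD1.2 was again highest at 20 dpa, but GWD1.1-A1 at 18 and GWD1.1-B1 at 15 dpa. The GWD1.1 libraries of 13 and 15 dpa overlapped, and the TPM peak of GWD1.1-A1 moved when any of 3 libraries was left out and that of GWD1.1-B1 with 1. GWD1.2-A1 (TRITD7Av1G086070) lies on chromosome 7A at 205526737 to 205537290, with a coding length of 4356 bases, and GWD1.2-B1 (TRITD7Bv1G060720) on 7B at 171577502 to 171588038, with 4359. GWD1.2-A1 measured 0.185, 0.191 and 0.386 TPM at 6 dpa and 0.292, 0.200 and 0.619 TPM at 13 dpa, and the groups overlapped. Its log2 fold change between them was 0.76 ± 0.55 (edgeR adjusted p = 0.252), and that of GWD1.2-B1 0.20 ± 0.40 (adjusted p = 0.689).

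At 20 dpa GWD1.2-A1 measured 0.318, 2.00 and 1.34 TPM. GWD1.2-B1 gave 0.447, 1.41 and 1.03 TPM in the same libraries, so replicate 1 was low for both copies and replicates 2 and 3 were above all libraries of 6 to 18 dpa. The increase from 13 to 20 dpa had a log2 fold change of 2.37 ± 0.57 for GWD1.2-A1 (edgeR adjusted p = 0.0101) and 1.76 ± 0.41 for GWD1.2-B1 (adjusted p = 0.00841). Of the libraries left out in turn, replicate 2 of 13 dpa ended the call for GWD1.2-A1 (2.14, adjusted p = 0.0573), and so did a fit of the 6 libraries alone (2.38, adjusted p = 0.0587) and limma on TPM with 0.1 added (1.30, adjusted p = 0.0600). For GWD1.2-B1, scaling by library totals alone ended it (1.13, adjusted p = 0.0658), as did limma on TPM with 0.1 added (0.91, adjusted p = 0.0925) or 1 added (0.42, adjusted p = 0.0657).

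At 30 dpa a single library carried the high values. GWD1.2-A1 measured 0.236, 1.25 and 0.272 TPM and GWD1.2-B1 0.268, 1.12 and 0.346 TPM, with replicate 2 high in both. From 6 to 30 dpa GWD1.2-A1 rose by a log2 of 2.43 ± 0.57 (edgeR adjusted p = 0.00103), and by 1.38 without replicate 2 of 30 dpa (adjusted p = 0.0250). It was not called with library totals alone (0.72, adjusted p = 0.299) or in limma on TPM (0.69 and 0.29 with 0.1 or 1 added, adjusted p = 0.263 and 0.282). GWD1.2-B1 rose by 1.59 ± 0.41 (adjusted p = 0.00215), with 0.82 and no call without that library (adjusted p = 0.0537) and -0.15 when scaled by library totals alone, and limma on TPM did not call it (0.13 and 0.08). From 20 to 30 dpa neither copy was called, but without the same library GWD1.2-A1 fell by 1.75 (adjusted p = 0.0455).

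The make-up of the GWD transcripts shifted during development (panels of copy shares). GWD1.1, both copies summed, made up 3.02% ± 2.76 of the TPM of all 4 GWD genes at 6 dpa (SD, n = 3), 24.8% ± 4.93 at 10 dpa and 49.2% ± 5.83 at 13 dpa. The share was 48.7% ± 10.1 at 15 dpa and 37.2% ± 10.4 at 18 dpa. By 20 dpa it was 15.9% ± 14.9, with 21.5% ± 12.7 at 30 dpa. GWD1.1 exceeded GWD1.2 in 4 of the 24 libraries, 2 of 3 at 13 dpa and 2 of 3 at 15 dpa. Being a ratio within a library, this share does not move with the scaling. The log2 ratio of GWD1.1 to GWD1.2 (0.1 TPM added) ran from a mean of -2.73 ± 0.70 at 6 dpa to -0.04 ± 0.29 at 13 dpa and -2.40 ± 1.34 at 20 dpa, and differed among timepoints in a permutation test of the timepoint labels (p = 0.00216, 1e+05 permutations), with p from 6e-05 to 0.0052 as each library was left out. The p of 6e-05 was without replicate 1 of 20 dpa, the library in which GWD1.2 was low. The 4 GWD genes together were highest at 20 dpa, with 2.46 TPM ± 1.28, and lowest at 10 dpa, with 0.590 ± 0.0852.

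**Figure D3:**
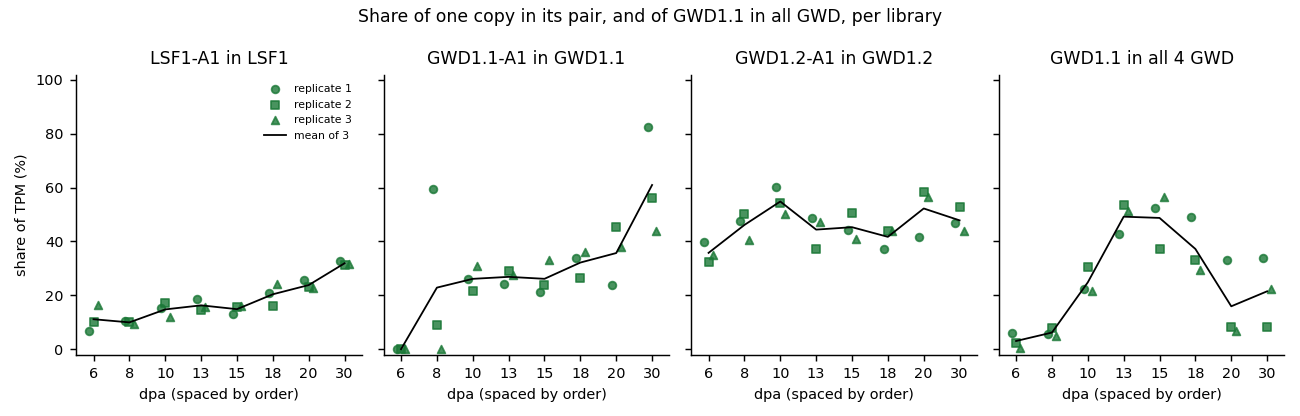
Share of TPM in % (y axis) against dpa (x axis, spaced by order) in each library for LSF1-A1 within LSF1, GWD1.1-A1 within GWD1.1, GWD1.2-A1 within GWD1.2 and GWD1.1 within all 4 GWD genes; symbols are replicates and lines join means of 3. The LSF1-A1 share was 11.1% at 6 dpa and 31.9% at 30 dpa, and the GWD1.1 share was highest at 13 dpa, at 49.2%.

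PWD-A1 encodes phosphoglucan, water dikinase, which acts on glucan that GWD has already phosphorylated. Its transcript (TRITD0Uv1G059180, coding length 3525 bases) is on a scaffold not assigned to a chromosome in Svevo.v1. It was above the 4 GWD genes summed in 24 of 24 libraries, by a median of 6.48 times in TPM and a range of 1.86 to 21.8 times. The smallest ratio of timepoint means was 2.56, at 20 dpa, and the largest was 16.5, at 10 dpa.

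PWD-A1 measured 6.98, 9.39 and 7.50 TPM at 6 dpa, 10.98, 9.14 and 7.74 TPM at 13 dpa, 6.88, 7.35 and 4.72 TPM at 20 dpa and 5.81, 5.20 and 4.94 TPM at 30 dpa. The 6 and 13 dpa libraries overlapped, and all 3 libraries of 30 dpa were below all 3 of 6 dpa. In TMM-scaled counts PWD-A1 rose between 6 and 30 dpa by a log2 of 0.72 ± 0.19 (edgeR adjusted p = 0.00236), a direction that turned to -1.03 when scaled by library totals alone and to -0.56 and -0.50 in limma on TPM with 0.1 or 1 added. Its change was thus above that of the median gene while its share of the transcripts was smaller at 30 dpa. From 6 to 13 dpa the log2 fold change of 0.50 ± 0.19 had an adjusted p of 0.0289 without passing 1.5-fold, and it did pass without replicate 3 of 13 dpa (0.68).

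PWD-A2 (TRITD4Av1G252630, chromosome 4A) was below PWD-A1 in 24 of 24 libraries, with PWD-A1 a median of 4.10 times higher. It rose by a log2 of 1.04 ± 0.26 between 6 and 13 dpa (edgeR adjusted p = 0.00247). PWD-A1 made up 83.9% ± 2.42 of the pair at 6 dpa, with a low of 77.0% ± 1.77 at 10 dpa, and the log2 ratio of the copies differed among timepoints in limma (adjusted p = 0.0178), though not without replicate 2 or 3 of 6 dpa (adjusted p = 0.0621 and 0.0571).

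**Figure D4:**
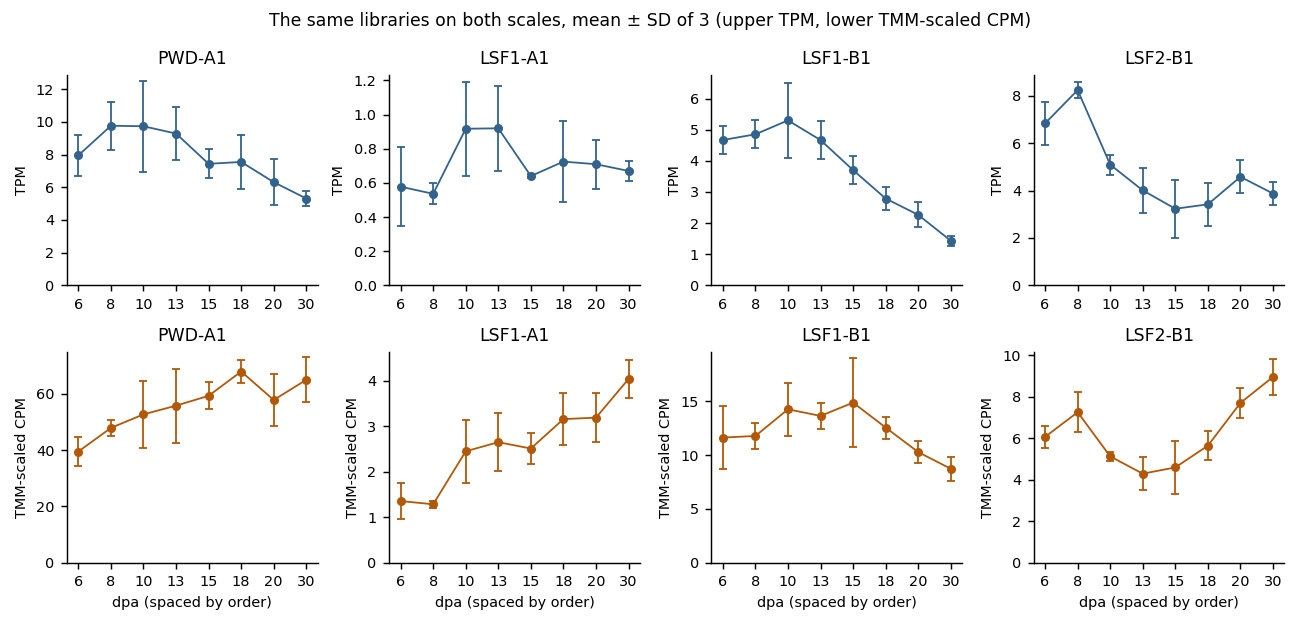
Mean ± SD of 3 libraries against dpa (x axis, spaced by order) for PWD-A1, LSF1-A1, LSF1-B1 and LSF2-B1, in TPM (upper row) and in TMM-scaled CPM (lower row), both from 0. PWD-A1 was 7.96 TPM at 6 dpa and 5.32 TPM at 30 dpa, against 39.5 and 65.0 TMM-scaled CPM; LSF1-A1 and LSF2-B1 were highest at 30 dpa only on the lower scale.

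SEX4-A1 encodes the phosphatase that removes phosphate from both positions of the glucan. The gene (TRITD5Av1G249420) lies on chromosome 5A at 647895344 to 647899813, with a coding length of 1110 bases. It was highest in the youngest endosperms, at 5.31, 7.49 and 8.12 TPM at 6 dpa, and measured 3.57, 3.19 and 3.90 TPM at 13 dpa, with no overlap. It was the only gene of the 9 to fall between these timepoints, by a log2 of 0.68 ± 0.16 (edgeR adjusted p = 0.00161), and this call held with every library left out in turn.

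The mean of SEX4-A1 was lowest at 18 dpa, 1.75 TPM ± 0.309 (SD, n = 3), followed by 2.20 ± 0.519 at 20 dpa and 1.94 ± 0.582 at 30 dpa. The TMM-scaled CPM were 8.84 ± 0.471 at 6 dpa and 4.18 ± 0.175 at 18 dpa. From there they were 5.32 ± 1.24 at 20 dpa and 6.27 ± 1.27 at 30 dpa. The change from 6 to 30 dpa, -0.50 ± 0.17 on the log2 scale, had an edgeR adjusted p of 0.0134 and did not pass 1.5-fold. It was called as a fall of 0.67 without replicate 2 of 30 dpa, where SEX4-A1 was highest of the 3 (2.61 TPM against 1.58 and 1.62), as a fall of 2.24 with library totals alone, and as falls of 1.81 and 1.44 in limma on TPM.

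SEX4-B1 (TRITD4Bv1G199000, chromosome 4B) stood close to SEX4-A1, which was the higher copy in 14 of 24 libraries. It fell between 6 and 13 dpa as well, by 0.76 ± 0.20 (edgeR adjusted p = 0.00370). SEX4-A1 made up 54.4% ± 1.52 of the pair at 6 dpa and 56.4% ± 3.77 at 15 dpa. Its share was 42.3% ± 3.67 at 30 dpa, so that the 3 libraries of 30 dpa were below all 3 of 6 dpa. The ratio of the SEX4 copies differed among timepoints (limma adjusted p = 0.00782, and 0.0104 in a permutation test).

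LSF2-B1 encodes the second active phosphatase, which in Arabidopsis removes phosphate at C3. The gene (TRITD5Bv1G093040) lies on chromosome 5B at 274107373 to 274110088, with a coding length of 849 bases. It was highest at 8 dpa, with 8.09, 8.02 and 8.62 TPM, above all other libraries of the series. It measured 4.79, 2.96 and 4.27 TPM at 13 dpa, 3.84, 5.20 and 4.70 TPM at 20 dpa and 3.35, 4.33 and 3.94 TPM at 30 dpa, and these 3 groups overlapped.

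In TMM-scaled CPM LSF2-B1 was lowest in the middle of the course, with 7.25 ± 0.954 at 8 dpa and 4.28 ± 0.801 at 13 dpa. It reached 7.69 ± 0.735 CPM by 20 dpa and 8.95 ± 0.888 CPM by 30 dpa. It rose between 13 and 20 dpa by a log2 of 0.84 ± 0.19 (edgeR adjusted p = 0.00588). In the fit of the 6 libraries alone the adjusted p was 0.0540, and with library totals alone the change was 0.26 and not called, as in limma on TPM (0.20 and 0.17). From 6 to 13 dpa the log2 fold change was -0.50 ± 0.18 (adjusted p = 0.0270), short of 1.5-fold, and was called in DESeq2, at -0.59, without replicate 1 of 13 dpa, at -0.68, with library totals alone, at -1.05, and in limma on TPM, at -0.77 and -0.66. From 6 to 30 dpa it was 0.56 ± 0.18 (adjusted p = 0.0116), also short of 1.5-fold and past it without replicate 1 of 6 dpa or of 30 dpa (0.62 and 0.64), whereas library totals alone gave -1.18 and limma on TPM -0.80 and -0.68.

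The balance of dikinases and phosphatases, again a ratio within a library that the scaling does not move, shifted early. The 5 dikinase genes (4 GWD and PWD-A1) held 0.635 ± 0.0799 times the TPM of SEX4-A1 and LSF2-B1 at 6 dpa and 0.779 ± 0.112 times at 8 dpa (SD, n = 3). The ratio was 1.46 ± 0.201 at 13 dpa and peaked at 18 dpa with 1.78 ± 0.0799. Thereafter it was 1.31 ± 0.268 at 20 dpa and 1.16 ± 0.155 at 30 dpa. It was below 1 in all 6 libraries of 6 and 8 dpa and above 1 in all 9 of 13 to 18 dpa. With PWD-A2 and SEX4-B1 included, it ran from 0.527 ± 0.0781 at 6 dpa to 1.59 ± 0.128 at 18 dpa and 0.963 ± 0.114 at 30 dpa, where 1 of 3 libraries was above 1. PWD-A1 dominated the numerator, and its ratio to SEX4-A1 went from 1.16 ± 0.210 at 6 dpa to 4.29 ± 0.210 at 18 dpa.

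LSF1 is the protein without known phosphatase activity that binds β-amylases in Arabidopsis. LSF1-A1 (TRITD1Av1G226140) lies on chromosome 1A at 575870469 to 575874443, with a coding length of 1854 bases, and LSF1-B1 (TRITD1Bv1G224020) on 1B at 667208175 to 667212386, with 1872. LSF1-B1 was the higher copy in 24 of 24 libraries, by a median of 5.24 times in TPM. The copies differed in their course.

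LSF1-B1 measured 4.85, 4.998 and 4.16 TPM at 6 dpa, 5.13, 3.96 and 4.91 TPM at 13 dpa, 2.32, 2.64 and 1.83 TPM at 20 dpa and 1.24, 1.53 and 1.53 TPM at 30 dpa. The libraries of 30 dpa were below all others. In TMM-scaled counts its log2 change from 6 to 30 dpa was -0.41 ± 0.19 and was not called (edgeR adjusted p = 0.0709), and none of the 10 comparisons called it, whereas library totals alone gave a called fall of 2.14 and limma on TPM called falls of 1.64 and 1.22.

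LSF1-A1 measured 0.358, 0.552 and 0.822 TPM at 6 dpa, 1.17, 0.675 and 0.914 TPM at 13 dpa and 0.604, 0.702 and 0.703 TPM at 30 dpa. These groups overlapped in TPM. In TMM-scaled counts it rose between 6 and 13 dpa, by a log2 of 0.97 ± 0.24 (edgeR adjusted p = 0.00243), with library totals alone giving 0.39 and no call, and limma on TPM 0.62 and 0.29 and no call. It had risen by 0.93 ± 0.25 from 8 to 10 dpa (adjusted p = 0.0152), which was not called without replicate 1 or 3 of 8 dpa or replicate 2 of 10 dpa (adjusted p of 0.0539 to 0.128), with library totals alone (0.65, adjusted p = 0.137) or in limma on TPM (adjusted p = 0.141 and 0.104). From 6 to 30 dpa it rose by 1.58 ± 0.25 (adjusted p = 1.54e-05), a direction that turned to -0.19 with library totals alone, and limma on TPM gave 0.24 and 0.09 with no call.

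The share of LSF1-A1 in the pair, which no scaling moves, was 6.89%, 9.95% and 16.5% at 6 dpa, 18.6%, 14.6% and 15.7% at 13 dpa, 25.5%, 23.1% and 22.8% at 20 dpa and 32.7%, 31.4% and 31.6% at 30 dpa. The groups of 20 and 30 dpa overlapped with none before 18 dpa. The log2 ratio of LSF1-A1 to LSF1-B1 counts (0.5 added) went from -3.11 ± 0.71 to -1.11 ± 0.05, and differed among timepoints in limma over 56 homeolog pairs of the starch genes (adjusted p = 1.01e-05), as it did in a permutation test of the timepoint labels, at the smallest p that 1e+05 permutations can give (1e-05). Of the 56 pairs 47 differed. Summed over both copies, LSF1 did not pass the F test among timepoints (edgeR adjusted p = 0.104).

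The other pairs also changed balance. The GWD1.1-A1 share of GWD1.1 was 26.1% ± 4.48 at 10 dpa and 26.9% ± 2.44 at 13 dpa. It was 35.7% ± 10.98 by 20 dpa and 61.0% ± 19.7 by 30 dpa, where the 3 libraries gave 82.6%, 56.3% and 44.0%. At 8 dpa its libraries ran from 0 to 59.5% on a few counts. The log2 ratio of the GWD1.1 copies differed among timepoints (limma adjusted p = 0.00747). This test took in 6 dpa, where GWD1.1-A1 had 0 counts in all 3 libraries. The mean ratio there, -4.23, was the lowest of the course and rested on the value added to the counts. The SD of the ratio was uneven, from 0.18 at 13 dpa to 2.76 at 8 dpa. A change in balance from 10 to 30 dpa alone was not tested. The GWD1.2-A1 share of GWD1.2 was lowest at 6 dpa, 35.8% ± 3.89, and highest at 10 dpa, 54.8% ± 5.14 (limma adjusted p = 0.0175), and the difference was not called without replicate 2 of 6 dpa (adjusted p = 0.0591). Reads that both copies share are divided between them by the pseudoalignment, so the level of a single copy is less certain than the sum.

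For comparison, 3 other categories of the sheet (starch degradation, maltooligosaccharide metabolism and plastidial transporters) were joined here and called starch breakdown genes. The name is only a label, and the authors mention a proposed part in starch synthesis for PHS1, a member of the set. None of the 9 is in it. Of its 41 genes 40 were tested. From 6 to 13 dpa 20 of these rose and 5 fell, where 26.0% and 23.8% of all genes tested did. From 13 to 20 dpa the counts were 6 and 1 (6.82% and 4.37% of all genes), from 20 to 30 dpa 3 and 0 (3.08% and 7.16%), and from 6 to 30 dpa 22 and 4 (28.7% and 29.1%). With library totals alone 14 rose and 7 fell from 6 to 13 dpa (15.3% and 37.8% of all genes), and 11 rose and 17 fell from 6 to 30 dpa (8.23% and 67.1%). Their median log2 fold change from 6 to 30 dpa was 1.12, against -0.01 for all genes tested and 1.58 for the 9 genes. In TPM with 0.1 added, which draws the changes of low genes toward 0, the medians were -0.04, -1.08 and 0.13. With library totals alone the medians were -0.61, -1.76 and -0.19. For comparison, 23 of 29 amylopectin synthesis genes rose and 1 fell from 6 to 30 dpa. Their median was 1.85, or 0.54 in TPM with 0.1 added. With library totals alone 8 of them rose and 8 fell, with a median of 0.11. Of 23 genes of ADP-glucose supply 9 rose and 2 fell, with a median of 0.08 that turned to -1.31 in TPM with 0.1 added. With library totals alone 4 of them rose and 16 fell, with a median of -1.68.

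Across the 8 timepoint means of TMM-scaled log2 CPM, the 9 genes followed different patterns, described here by Pearson's r over points that share libraries and scaling. Of 94 other starch genes, GWD1.1-A1 was most like PTST1-B1 (r = 0.99) and GWD1.1-B1 most like ESV1-B1 (r = 0.98). In Arabidopsis leaves PTST1 guides the amylose-making synthase to the granule, and ESV1 is thought to act in granule structure. Neither role was tested here. GWD1.2-A1 was most like SS3b-A1 (r = 0.93), a starch synthase gene, and GWD1.2-B1 most like SS3b-B1 (r = 0.91). PWD-A1 was most like BAM10-A1 (r = 0.97) and LSF1-A1 most like BAM1.1-B1 (r = 0.97), both β-amylase genes. Next for LSF1-A1 was SBE1.1-B1, a branching enzyme gene, also at r = 0.97. Of the 94 genes, 35 had r above 0.9 with GWD1.1-A1, 35 with PWD-A1 and 20 with LSF1-A1. A link between LSF1 and β-amylases was not tested. SEX4-A1 was most like DPE2-B1 (r = 0.88), a disproportionating enzyme, LSF1-B1 most like GBSSII-B1 (r = 0.90) and LSF2-B1 most like SEX4-B1 (r = 0.84).

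Such likeness was common for some of the 9 genes and rare for others. Of the 31805 or 31806 genes compared with each, 5526 had r above 0.9 with GWD1.1-A1, 3575 with LSF1-A1 and 3548 with PWD-A1. Fewer did with SEX4-A1 (217) and LSF2-B1 (80). Among the 9 genes, the copies of GWD1.1 had r = 0.94 with each other and those of GWD1.2 r = 0.95. LSF1-A1 and LSF1-B1 had r = -0.28, and the lowest value of all pairs, r = -0.93, was between LSF1-B1 and LSF2-B1. These r hold for the TMM scale alone, and r in TPM was not computed. In mean TPM both LSF1-B1 and LSF2-B1 were lower at 30 than at 8 dpa (1.43 against 4.85, and 3.87 against 8.24). In TMM-scaled CPM only LSF1-B1 was lower (8.73 against 11.8), and LSF2-B1 was higher (8.95 against 7.25).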

How the data were processed

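The authors pseudoaligned 150 bp read pairs to the canonical transcripts of the Svevo v1 durum wheat transcriptome with kallisto (version 0.46.1 per the labels). They deposited estimated counts, with no scaling between libraries, and TPM, which the authors scaled by transcript length to the same sum in every library. Sequences of the genes are not used here, and coordinates are those of Svevo.v1 in RefSeq.

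Estimated counts were rounded, and a gene entered the tests when 3 or more libraries gave it 10 counts or more, which 44240 genes did, among them all 9 described. edgeR 4.0.16 (quasi-likelihood F test, TMM, all 24 libraries, timepoint as factor, R 4.3.3) gave 10 comparisons. Homeolog ratios were tested with limma 3.58.1. DESeq2, a tool that the authors used too, was run here in version 1.42.0. It was an alternative beside other scalings, filters, thresholds, TPM and each library left out in turn. Tables, permutation tests and figures used Python 3.11.15. The tests were tried on simulated data with the same spread throughout, which cannot show how they act on the uneven spread of the GWD1.1 ratios. The SE were derived from the log2 fold change and F statistic of the edgeR fits, which take in the spread between replicates. The SD are over the 3 libraries of a timepoint. The bounds from a floor of 3 counts cover counting error only. A library held 56180606 to 115800050 counts. No 2 libraries of a timepoint were alike within sampling noise (chi-square per degree of freedom of at least 36.8), so none was treated as a repeat deposit.

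Genes were named by a rule: the 9 genes, the other copies of PWD and SEX4, and the most alike starch genes. The genes, lists and tests were chosen with earlier results of these data known.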

Additional observations from a re-analysis of the deposited data

How the results depend on the processing

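Library totals alone and limma on TPM, which also changes the test and the value added, changed the most calls. With library totals alone, 2 fell from 6 to 13 dpa (37.8% of all genes tested). From 13 to 20 dpa 2 fell (32.0%) and 1 rose (3.58%), and from 20 to 30 dpa 1 fell (29.3%). From 6 to 30 dpa 4 fell (67.1%) and 2 rose (8.23%). In this last comparison the log2 fold changes turned to -0.15 for GWD1.2-B1, -1.03 for PWD-A1, -0.19 for LSF1-A1 and -1.18 for LSF2-B1. In limma on log2(TPM + 0.1), falls numbered 2, 3, 1 and 3 in these comparisons, with 0 rises from 13 to 20 dpa and 1 from 6 to 30 dpa, where PWD-A1 turned to -0.56 and LSF2-B1 to -0.80. In limma on log2(TPM + 1), rises numbered 1 and falls 2 from 6 to 13 dpa, 1 and 1 from 13 to 20 dpa, and 0 and 3 from 6 to 30 dpa, with PWD-A1 at -0.50 and LSF2-B1 at -0.68.

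DESeq2 and its size factors in edgeR called 2 falls between 6 and 13 dpa, as did edgeR with no fold threshold, which also called 1 fall between 6 and 30 dpa, and a log2 threshold of 1.5 left 0 falls between 6 and 13 dpa. A filter of 10 CPM in 3 libraries left 4 of the 9 genes in the test, of which 0 rose between 6 and 13 dpa, 1 between 13 and 20 dpa and 2 between 6 and 30 dpa, and all 4 differed among timepoints. With A and B copies summed fewer of the 9 were counted, and 1 rose between 6 and 13 dpa, 3 rose between 6 and 30 dpa and 5 differed among timepoints. In fits of only the 6 libraries compared, 1 rose between 13 and 20 dpa. The ratio of GWD1.1 to GWD1.2 with 1 TPM added gave p = 0.0297 in the permutation test.

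With each library left out in turn, rises numbered 3 to 4 and falls 1 to 2 from 6 to 13 dpa, rises 2 to 3 from 13 to 20 dpa, falls 0 to 1 from 20 to 30 dpa, and rises 5 to 7 and falls 0 to 1 from 6 to 30 dpa. The F test called 8 to 9. The span between the largest and smallest timepoint mean of the log2 homeolog ratio was 0.97 to 1.28 for GWD1.2 and 0.54 to 0.79 for PWD.

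The replicate numbers were not taken as pairs. Which timepoints shared a plant is not given. Deviations of libraries with the same number correlated at -0.12 to 0.32, which cannot decide whether the numbers mark shared plants. With the replicate number as a block, rises numbered 3 and falls 1 from 6 to 13 dpa, rises 3 from 13 to 20 dpa and 6 from 6 to 30 dpa, and 9 differed among timepoints, the counts found without it.

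GWD1.1-A1 rested on at most 197 counts in a library (0.378 TPM), and no fold can be fixed for it where a timepoint had 0 counts.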
